A study of Mus musculus with 20 samples.

Results

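Acute phase proteins are plasma proteins whose amounts change when the body meets infection or injury, and most of them are made in the liver. The 10 genes described here were taken by symbol as a list of classical mouse acute phase protein genes, out of 25444 loci in the tables: Saa1, Saa2, Saa3 and Saa4 (serum amyloid A), Orm1, Orm2 and Orm3 (orosomucoid, or alpha-1-acid glycoprotein), Hp (haptoglobin), Lcn2 (lipocalin 2) and Apcs (amyloid P component, serum). Each symbol named 1 locus. All 10 were among the 13704 genes with enough counts to be tested. RNA-seq was performed on the left lateral liver lobe of 20 mice that were 20 weeks old, 5 females (F) and 5 males (M) of C57BL/6N (B6) and 5 of each sex of C3H/HeN (C3). The labels name no engineered allele and no treatment for any group, so the levels are those of inbred mice without a stated challenge. Each mouse was caged alone, and because the sexes were kept in different rooms, an effect of sex cannot be told apart from one of room. Each liver gave 1 library, and the libraries had been spread at random over 3 sequencing pools, with 8, 5 and 7 libraries in pools 1, 2 and 3.

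Total counts per library ranged from 27370921 to 46835745, and the members were counted between 20 times (Saa3 in 1 C3 F liver) and 132696 times (Hp in 1 B6 M liver), so counting error weighed most on Saa3, with at most 160 counts. Levels of 1 gene in different livers are given as CPM, the count scaled to a common library size after TMM normalization. Levels of different genes are compared as the deposited TPM, which also divides by gene length. Errors after ± are SD over n = 5 livers. The labelled tissue matched its markers: the 8 hepatocyte markers summed to between 80770 and 171606 CPM in a liver. RNA from bulk liver cannot separate fewer cells of a type from less RNA per cell.

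In textbook accounts, interleukin-6 and interleukin-1, released by macrophages and other cells, act on hepatocytes through STAT3, C/EBP and NF-kB factors and raise transcription of the positive acute phase genes. Saa1 and Saa2 encode the acute phase apolipoproteins that travel on high density lipoprotein, Saa3 is also made outside hepatocytes, by macrophages and fat cells among others, and Saa4 encodes a form that is made constitutively. Orosomucoids bind drugs and other small lipophilic molecules, haptoglobin binds free haemoglobin, lipocalin 2 binds bacterial iron-carrying siderophores and is also stored in neutrophil granules, and serum amyloid P component, a pentraxin, is a major acute phase reactant in the mouse.

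The Saa genes form 1 cluster and the Orm genes another in the mm9 coordinates of the tables. Saa3 (identifier 20210) lay at chr7:53967368-53971046, Saa4 (20211) at chr7:53983369-53987913 and Saa1 (20208) at chr7:53995869-53998350, all on the minus strand. Saa2 (20209) lay beside Saa1 at chr7:54007203-54009684 on the plus strand. RefSeq lists the symbols Saa1 and Saa2 as synonyms of each other's gene, so the identifiers fix which is meant. Orm1 (18405) lay at chr4:63005590-63009197, Orm3 (18407) at chr4:63017196-63020545 and Orm2 (18406) at chr4:63023483-63026911, all on the plus strand. Hp (15439) lay at chr8:112099028-112103072, Lcn2 (16819) at chr2:32240157-32243259 and Apcs (20219) at chr1:174824092-174825185, all on the minus strand. No member overlapped another annotated gene in that build.

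The neighbours are near copies of each other, both as transcripts and upstream of the gene. Aligned over their longest annotated transcripts, Saa1 and Saa2 were identical at 92.7% of columns, Orm1 and Orm2 at 91.0% and Orm2 and Orm3 at 88.0%. Of all 125-base windows of a member's transcript, 2.61% in Orm1 and in Orm2 occurred unchanged in each other's transcript. None of any other member occurred in a transcript of a second protein-coding gene, so among these transcripts read pairs could mostly be assigned to 1 copy. Only protein-coding transcripts were searched, not the rest of the genome. How C3 sequence variants affect the assignment of reads was not tested. The 250 bases upstream of the start of Saa1 and Saa2, from RefSeq in build GRCm38.p6, are shown because these 2 genes had nearly the same promoter and yet different levels, and those of Orm2 and Orm3 because they are the 2 Orm genes whose levels differed between groups; the capitals mark matches to TTNNGNAA, a C/EBP core, on either strand and to TATAAA. Saa1 is from chr7:46742981-46743230 on the minus strand, Saa2 from chr7:46751583-46751832, Orm2 from chr4:63362199-63362448 and Orm3 from chr4:63355908-63356157 on the plus strand.
Saa1: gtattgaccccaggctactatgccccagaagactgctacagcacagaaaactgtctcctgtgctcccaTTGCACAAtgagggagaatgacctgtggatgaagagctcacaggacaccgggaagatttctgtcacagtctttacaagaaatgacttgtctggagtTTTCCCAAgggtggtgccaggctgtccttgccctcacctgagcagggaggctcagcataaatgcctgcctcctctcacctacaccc
Saa2: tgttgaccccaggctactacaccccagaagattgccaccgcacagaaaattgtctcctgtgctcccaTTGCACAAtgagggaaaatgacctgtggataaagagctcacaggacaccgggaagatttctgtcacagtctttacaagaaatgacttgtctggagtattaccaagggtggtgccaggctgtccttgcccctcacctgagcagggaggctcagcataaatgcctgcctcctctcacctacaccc
Orm2: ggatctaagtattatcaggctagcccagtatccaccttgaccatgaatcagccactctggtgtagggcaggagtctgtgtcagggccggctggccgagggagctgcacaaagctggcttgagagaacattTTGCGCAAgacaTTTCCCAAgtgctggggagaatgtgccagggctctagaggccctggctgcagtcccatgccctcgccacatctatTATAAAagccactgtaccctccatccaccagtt
Orm3: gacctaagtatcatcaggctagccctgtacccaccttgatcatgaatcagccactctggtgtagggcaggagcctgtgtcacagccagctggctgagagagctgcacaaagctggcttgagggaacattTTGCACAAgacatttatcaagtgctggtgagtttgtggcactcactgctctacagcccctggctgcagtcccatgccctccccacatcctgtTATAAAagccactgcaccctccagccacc

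The upstream sequences of Saa1 and Saa2 were identical at 238 of 251 aligned columns (94.8%), and those of Orm2 and Orm3 at 85.5%. In Saa1 the C/EBP core matched at 2 places, as TTGCACAA from 182 bases and TTTCCCAA from 86 bases before the start, and in Saa2 it matched 1 time, as TTGCACAA from 183 bases. Orm2 had matches as TTGCGCAA from 120 bases and TTTCCCAA from 108 bases, and Orm3 had TTGCACAA from 121 bases. TATAAA stood 33 bases before the start of Orm2 and 29 before that of Orm3. Of 32851 mouse promoters of the same length, 36.8% held a match to TTNNGNAA and 12.4% one to TATAAA, so such matches are common. TTCNNNGAA, a STAT site found in 7.02% of promoters, matched in none of these 4 sequences. Among the other members, Saa3 held 4 matches to the C/EBP core, Saa4 held 2, Lcn2 held 1 and Apcs held none but had 1 STAT match, TTCTAGGAA, from 244 bases before its start. Hp and Orm1 have no sequence here. The sequences come from the C57BL/6 reference, and the C3 alleles were not read.

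Levels of the 10 genes spanned a wide range in every group. Hp had the highest mean TPM, 2411 over the 20 livers, and ranked 53 of 25444 loci, followed by Orm1 with 1786 TPM at rank 69. Apcs had a mean of 366 TPM and Saa4, the constitutive form, one of 283 TPM. Saa1 averaged 124 TPM, Orm2 66.8, Saa2 29.8, Lcn2 16.2, Orm3 12.2 and Saa3 6.55 TPM. In the 4 group means, Hp made up 38.8 to 53.4% and Orm1 32.5 to 38.7% of the summed TPM of the 10 genes. That sum came to 0.463 ± 0.0368% of all TPM in B6 F, 0.542 ± 0.145% in B6 M, 0.512 ± 0.101% in C3 F and 0.524 ± 0.0310% in C3 M. These 4 ranges overlapped, and the highest single value, 0.797%, was that of B6 M replicate 3.

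**Figure D1:**
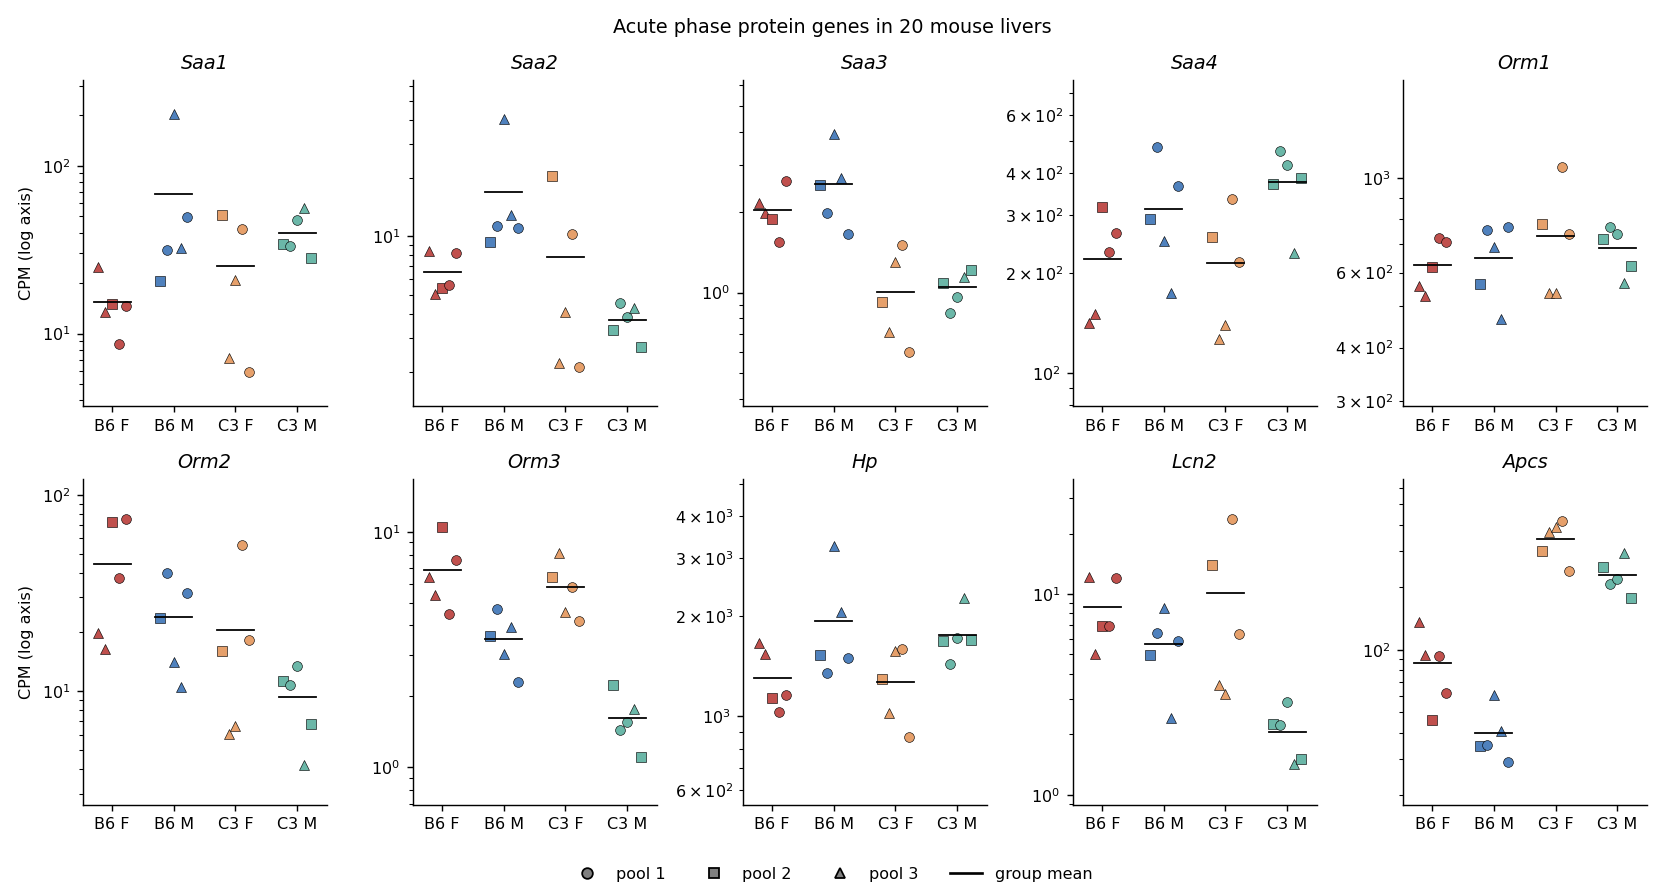
CPM of each gene in each of the 20 livers on log axes, by group, with the symbol giving the sequencing pool and the line the mean of 5 livers. Apcs in C3 (178 to 416 CPM) stood above B6 (28.7 to 136 CPM) in both sexes, while Saa1 and Saa2 were scattered within groups, with B6 M replicate 3 at 203 and 40.2 CPM.

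A gene was called when its edgeR adjusted p over all 13704 genes was under 0.001 and its log2 fold change was above 0.5 or below -0.5. Between females and males, 1 of the 10 genes was called in B6, where 6.34% of all genes tested were called, and 2 were called in C3, where 6.90% were. Between C3 and B6, 1 of 10 was called in females, against 9.40% of all genes, and 3 of 10 in males, against 9.64%. With an adjusted p under 0.05 and no minimum fold, 6 members passed in the B6 sex comparison (34.6% of all genes), 5 in the C3 sex comparison (40.0%), 3 in the female strain comparison (32.9%) and 6 in the male strain comparison (34.5%). The median absolute log2 difference of the 10 genes was 0.73 between the sexes in B6, 0.67 in C3, 0.21 between the strains in females and 1.21 in males, where the medians over all genes tested were 0.20, 0.22, 0.18 and 0.20. The livers of 2 groups did not overlap in CPM for 1 member between the sexes in B6 (10.9% of all genes tested), 2 in C3 (13.1%), 2 between the strains in females (12.8%) and 4 in males (15.1%). The comparisons share livers, so these counts are not independent of each other.

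**Figure D2:**
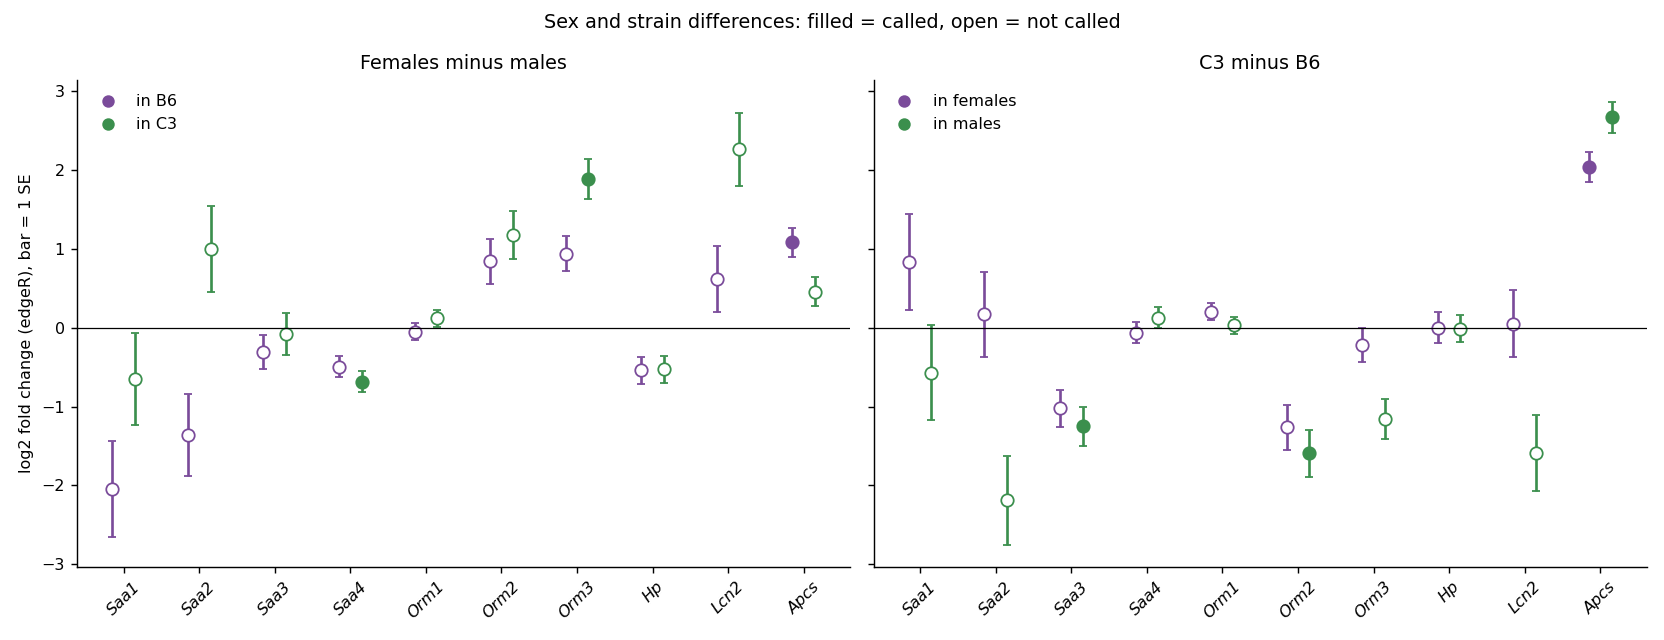
Log2 fold change of each gene from the edgeR fit of group and pool, with bars of 1 SE, for females minus males in each strain (left) and for C3 minus B6 in each sex (right). Filled points are the 7 calls: Apcs in B6, Saa4 and Orm3 in C3 between the sexes, and Apcs in both sexes and Saa3 and Orm2 in males between the strains.

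Apcs showed the largest strain difference of the 10 genes. Its CPM was 136, 94.1, 46.1, 92.9 and 62.1 in the 5 B6 F livers (replicates 1 to 5) and 34.5, 35.0, 60.8, 40.8 and 28.7 in the B6 M livers. In C3 it was 298, 369, 388, 416 and 239.9 in females and 251, 208, 219.6, 293 and 178 in males. Every C3 liver was above every B6 liver, and the order of the group means was C3 F, C3 M, B6 F and B6 M. The C3 mean was 342 ± 71.9 against 86.2 ± 34.4 CPM in females, a fitted fold change of 4.12 (log2 2.04, SE 0.19, adjusted p = 8.80e-08), and 229.9 ± 43.9 against 40.0 ± 12.4 CPM in males, a fold change of 6.37 (log2 2.67, SE 0.19, adjusted p = 3.62e-09). Apcs was called in both strain comparisons in the same direction, as 6.22% of all genes tested were. Within pools 1, 2 and 3 the log2 strain difference was 2.06, 2.69 and 1.74 in females and 2.75, 2.61 and 2.55 in males.

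Between the sexes, Apcs was 2.12-fold higher in B6 females than in B6 males (log2 1.09, SE 0.18, adjusted p = 0.000203), although the highest male, 60.8 CPM, lay above the lowest female, 46.1 CPM. The within-pool values of this difference were 1.26, 0.42 and 1.18. In C3 the log2 difference was 0.46 (SE 0.18, adjusted p = 0.0535) and was not called. The sex difference itself did not pass a test of a difference between the strains (interaction log2 -0.63, SE 0.26, adjusted p = 0.223). The call in B6 was lost without B6 M replicate 5 (log2 1.02, with an adjusted p at the threshold), when the fit had no pool term (log2 1.11, adjusted p = 0.00448) and when only the B6 livers were fitted (log2 1.08, adjusted p = 0.00192).

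Saa1 and Saa2 varied more among livers of the same group than nearly all other genes, by an SD taken over the 4 groups together. The groups were not alike in this. Saa2 spread 9.61-fold from the lowest to the highest liver in C3 F and 4.31-fold in B6 M, but 1.66-fold in B6 F and 1.69-fold in C3 M. Saa1 measured 25.1, 13.4, 15.0, 8.65 and 14.6 CPM in B6 F and 20.7, 31.5, 203, 32.5 and 49.6 CPM in B6 M. In C3 F it measured 51.0, 7.18, 20.9, 41.9 and 5.91 CPM and in C3 M 34.0, 33.1, 47.3, 55.7 and 28.3 CPM. One B6 M liver, replicate 3, stood at 203 CPM, above every other liver, and the C3 F livers spread 8.63-fold from the lowest to the highest, against 1.97-fold in C3 M. The log2 sex difference of Saa1, females minus males, was -2.05 in B6 (SE 0.61, adjusted p = 0.0148) and -0.65 in C3 (SE 0.59, adjusted p = 0.396), and neither was called. Without B6 M replicate 3 the B6 value was -1.13 and its adjusted p 0.107. The strain differences of 0.83 in females (adjusted p = 0.322) and -0.57 in males (adjusted p = 0.498) were not called.

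Saa2 measured 8.38, 5.05, 5.39, 5.58 and 8.25 CPM in B6 F and 9.33, 11.3, 40.2, 12.9 and 11.0 CPM in B6 M, so that every B6 male lay above every B6 female. In C3 F it measured 20.5, 2.22, 4.05, 10.3 and 2.13 CPM and in C3 M 3.29, 4.52, 3.84, 4.25 and 2.68 CPM, and every C3 male lay below every B6 male. Neither separation was called by edgeR: the log2 difference, females minus males, was -1.36 in B6 (SE 0.52, adjusted p = 0.0505), and C3 minus B6 in males was -2.19 (SE 0.56, adjusted p = 0.00549). Without B6 M replicate 3 the former was -0.72 (adjusted p = 0.255). The latter was -1.41, -1.63 and -2.40 within the 3 pools, and DESeq2 called it (log2 -2.19, adjusted p = 0.000931). In C3 the log2 sex difference was 1.00 (SE 0.55, adjusted p = 0.156), opposite in sign to that in B6, but within pools 1, 2 and 3 it was 0.17, 2.77 and -0.50. The interaction was 2.36 (SE 0.76, adjusted p = 0.108), the largest of the 10 genes, and was not called.

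The proportion of Saa2 to Saa1 within a liver set the C3 M livers apart; it is given as a ratio of TPM, as a description without a test. It ranged from 0.333 to 0.643 in B6 F, from 0.197 to 0.449 in B6 M and from 0.193 to 0.400 in C3 F. In C3 M it ranged from 0.0760 to 0.136, below all 15 other livers, with a mean of 0.0966 ± 0.0236 against 0.454 ± 0.139 in B6 F, 0.324 ± 0.110 in B6 M and 0.301 ± 0.0836 in C3 F. The Saa1 levels of C3 M (91.5 to 179 TPM) lay inside the range of B6 M (69.4 to 679 TPM), whereas their Saa2 levels (8.62 to 14.5 TPM) lay below it (31.1 to 134 TPM). In C3 F, Saa2 was 70.7, 7.91, 14.4, 33.6 and 7.39 TPM, so that 2 of the 5 livers lay below the levels of C3 M and 1 lay among them. In these 3 livers, replicates 2, 3 and 5, Saa1 was 25.8, 74.4 and 20.6 TPM, below every C3 M liver.

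**Figure D3:**
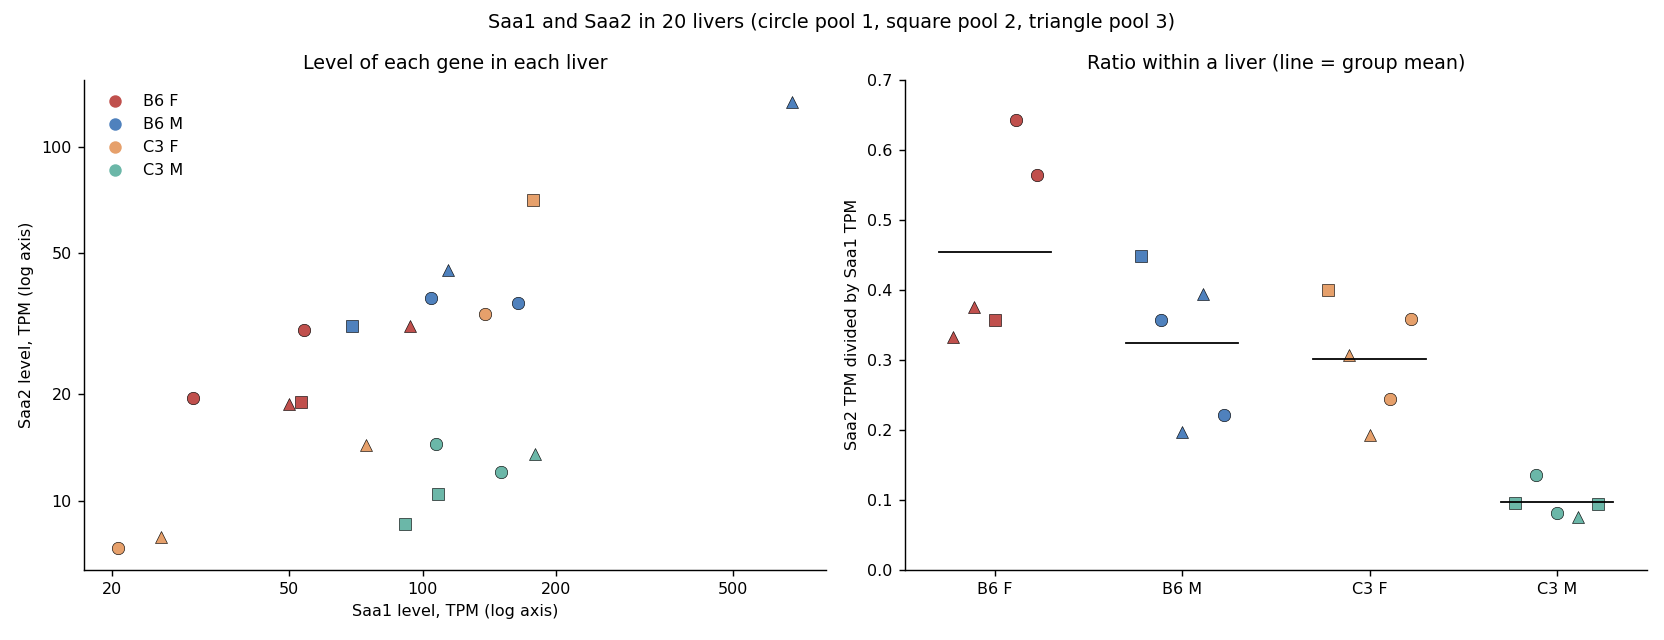
Left, Saa2 against Saa1 in each liver as TPM on log axes; right, the ratio of Saa2 to Saa1 TPM in each liver by group, with the group mean as a line and the pool as the symbol. The 5 C3 M livers lie between 0.0760 and 0.136 and the other 15 between 0.193 and 0.643.

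Saa3, the form also made outside hepatocytes, was the lowest member and was lower in C3 than in B6 males. Its CPM was 2.16, 1.99, 1.89, 1.54 and 2.62 in B6 F and 2.53, 1.99, 3.92, 2.69 and 1.66 in B6 M. In C3 F it was 0.925, 0.709, 1.30, 1.50 and 0.600 and in C3 M 1.08, 0.835, 0.959, 1.14 and 1.21. The strains did not overlap in either sex. In males the fold was 2.38 (log2 C3 minus B6 -1.25, SE 0.24, adjusted p = 0.000594), and in females the log2 difference of -1.02 (SE 0.24, adjusted p = 0.00275) was not called. Within pools these differences were -0.98, -1.11 and -1.47 in males and -1.03, -0.99 and -1.07 in females. The call in males was lost without any 1 of B6 M replicates 1, 3 and 4 and C3 M replicates 1 to 5, with log2 values between -1.30 and -1.09 and adjusted p up to 0.00343, and without C3 F replicate 4 the female difference was called (log2 -1.28, adjusted p = 0.000264). DESeq2 (adjusted p = 0.000167) and limma with either pseudocount (0.000743 and 0.000680) called the female difference too. The 10 Kupffer cell and macrophage markers moved with strain as well: 7 of 10 were lower in C3 females and 4 of 10 in C3 males. Of all genes tested, 9.40 and 9.64% were called in these comparisons. The summed level of these markers was 576 to 719 CPM in B6 F, 365 to 547 in B6 M, 374 to 551 in C3 F and 264 to 397 in C3 M. Of 6 fat cell markers 2 were tested, and 2 of 2 were lower in C3 males and 0 of 2 were called in females. The 6 markers summed to 0.190 to 0.531 CPM in B6 F, 2.30 to 9.17 in B6 M, 0.120 to 0.661 in C3 F and 0.357 to 0.619 in C3 M. The B6 M sums were nearly all Cidec (mean 2.76 CPM) and Cfd (1.60 CPM). Adipoq, Plin1, Lep and Retn averaged at most 0.0481 CPM in any group. The part of either cell type in the Saa3 result was not tested.

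Saa4, the constitutive form, was the only Saa gene called between the sexes. It measured 142, 150.4, 316, 232 and 265 CPM in B6 F and 292, 479.7, 249.5, 174 and 366 CPM in B6 M. The C3 F livers had 257, 127, 139, 335 and 217 CPM and the C3 M livers 372, 467, 424, 230.1 and 387 CPM. It was 1.61-fold lower in C3 females than in C3 males (log2 -0.69, SE 0.13, adjusted p = 0.000776), and the groups overlapped. Within pools the difference was -0.72, -0.56 and -0.79. In B6 the log2 sex difference was -0.49 (SE 0.13, adjusted p = 0.00798), which was not called, and the strain differences were -0.06 in females and 0.13 in males. The C3 call was near the threshold: it was lost in 13 of the 20 fits without 1 library, which left out B6 F replicate 1, 2 or 5, B6 M replicate 5, C3 F replicate 1, 2, 3 or 5 or any C3 M replicate, with log2 values from -0.71 to -0.61 and adjusted p up to 0.00337. It was also lost with no pool term (log2 -0.81, adjusted p = 0.0649), with upper quartile normalization (log2 -0.62, adjusted p = 0.00189) and with limma on log2(TPM + 1) (log2 -0.59, adjusted p = 0.00160) or log2(TPM + 0.1) (log2 -0.59, adjusted p = 0.00155).

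Among the Orm genes, Orm1 was the abundant and even one, while the 2 minor copies carried the differences. Orm1 measured between 466 and 1063 CPM in all 20 livers, with group means of 626 ± 87.0 in B6 F, 649 ± 130.0 in B6 M, 731 ± 216 in C3 F and 683 ± 84.2 in C3 M. None of its 4 comparisons reached an unadjusted p under 0.05, and the log2 differences lay between -0.05 and 0.20. Relative to Orm1, the TPM of Orm2 was 0.0693 ± 0.0411 in B6 F, 0.0360 ± 0.0140 in B6 M, 0.0244 ± 0.0168 in C3 F and 0.0133 ± 0.00422 in C3 M.

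Orm2 measured 19.8, 16.4, 72.7, 37.9 and 75.8 CPM in B6 F and 23.7, 40.1, 14.0, 10.5 and 31.5 CPM in B6 M. In C3 F it measured 16.0, 6.05, 6.65, 55.7 and 18.2 CPM and in C3 M 11.3, 10.8, 13.4, 4.20 and 6.78 CPM. The high B6 F livers were replicates 3, 4 and 5, and in C3 F replicate 4 stood at 55.7 CPM, with the next liver at 18.2 CPM. In males Orm2 was 3.02-fold lower in C3 than in B6 (log2 -1.59, SE 0.30, adjusted p = 0.000458), with overlapping CPM but values of -1.56, -1.43 and -1.51 within the 3 pools. In females the log2 strain difference was -1.26 (SE 0.29, adjusted p = 0.00222) and was not called, but it was called without C3 F replicate 4 (log2 -1.72, adjusted p = 8.09e-06) or without B6 F replicate 4 (log2 -1.45, adjusted p = 0.000528), by DESeq2 (adjusted p = 0.000315) and by limma with either pseudocount (0.000581 and 0.000533). The male call was lost without B6 M replicate 2 or 3 or C3 M replicate 2, 3, 4 or 5, with log2 values between -1.68 and -1.48 and adjusted p up to 0.00202, and in a fit with no pool term (log2 -1.37, adjusted p = 0.108). The sex differences, females minus males, were 0.84 in B6 (adjusted p = 0.0278) and 1.17 in C3 (adjusted p = 0.00549), and neither was called.

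Orm3 had the smallest adjusted p of the 10 genes between the sexes, in C3. It measured 6.45, 8.13, 4.55, 5.83 and 4.17 CPM in C3 F and 2.24, 1.44, 1.56, 1.76 and 1.11 CPM in C3 M, so that every female lay above every male. The fold was 3.70 (log2 1.89, SE 0.25, adjusted p = 1.57e-05), and the difference was 1.68, 1.99 and 1.76 within the 3 pools. It was called in all 20 fits without 1 library, with log2 values from 1.73 to 1.97. In B6 F it measured 6.41, 5.39, 10.5, 4.47 and 7.60 CPM and in B6 M 3.62, 4.68, 3.01, 3.95 and 2.30 CPM, which overlapped, with a log2 difference of 0.94 (SE 0.22, adjusted p = 0.00363) that DESeq2 called (adjusted p = 0.000281) and edgeR did not. The interaction of 0.95 (SE 0.34, adjusted p = 0.149) was not called either. Between the strains the log2 difference was -0.21 in females (adjusted p = 0.488) and -1.16 in males (SE 0.25, adjusted p = 0.00155), where the groups did not overlap. The male strain difference was called without C3 F replicate 2 (log2 -1.18, adjusted p = 0.000696), by DESeq2 (adjusted p = 1.72e-05) and by limma on log2(TPM + 0.1) (0.000701).

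Hp, the most abundant member, measured 1031 to 1659 CPM in B6 F, 1351 to 3250 in B6 M, 867 to 1599 in C3 F and 1433 to 2272 in C3 M. B6 M replicate 3 gave the highest value, 3250 CPM, and the groups overlapped. The log2 sex difference, females minus males, was -0.54 in B6 (SE 0.17, adjusted p = 0.0201) and -0.53 in C3 (SE 0.17, adjusted p = 0.0214), and neither was called. The strain differences were 0.00 in females (SE 0.20) and -0.01 in males (SE 0.17), both small beside the spread between livers.

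Lcn2 just missed the edgeR threshold between the sexes in C3. It measured 14.0, 3.50, 3.18, 23.5 and 6.30 CPM in C3 F and 2.24, 2.22, 2.91, 1.43 and 1.50 CPM in C3 M, without overlap. The log2 difference was 2.26 (SE 0.47, adjusted p = 0.00120), the largest of the 10 genes between the sexes, with values of 2.24, 2.89 and 1.20 within the 3 pools. It was called by DESeq2 (adjusted p = 2.85e-05), by limma on log2(TPM + 0.1) (0.000711), with upper quartile normalization (0.000935) and with no filter on low counts (0.000785). It was also called without B6 F replicate 1, B6 M replicate 3, C3 F replicate 2 or C3 F replicate 3, at adjusted p between 0.000543 and 0.000725. These were 4 of the 20 fits without 1 library, and the rest did not call it. Over the 20 fits the log2 value was lowest, 1.75, without C3 F replicate 4, and adjusted p reached 0.00709. RLE normalization, limma on log2(TPM + 1), no pool term, the replicate block and the fit of only the 2 groups did not call it either. In B6 F it measured 12.2, 5.01, 6.91, 6.97 and 12.0 CPM and in B6 M 4.97, 6.39, 8.55, 2.42 and 5.86 CPM, with a log2 difference of 0.62 (SE 0.42, adjusted p = 0.270). C3 minus B6 was 0.05 in females (adjusted p = 0.947) and -1.59 in males (SE 0.48, adjusted p = 0.0155), and the interaction was 1.64 (SE 0.63, adjusted p = 0.187); none was called. Lcn2 is also a neutrophil gene. Of 11 neutrophil markers 4 had enough counts to be tested, of which 1 was higher in females in each strain and 0 were called between the strains. Of all genes tested, 6.34% in B6 and 6.90% in C3 were called between the sexes, and 9.40% in females and 9.64% in males between the strains. The 11 markers summed to 4.20 to 5.99 CPM in B6 F, 2.91 to 3.92 in B6 M, 3.77 to 8.68 in C3 F and 2.85 to 3.34 in C3 M. In the group means the highest of them were Csf3r (1.53 to 2.67 CPM) and Ly6g (0.591 to 1.26 CPM). Ngp, Camp, Ltf, Mpo and Elane averaged at most 0.147 CPM in any group. The highest neutrophil sum, 8.68 CPM, and the highest Lcn2, 23.5 CPM, both came from C3 F replicate 4, but C3 F replicate 3, with a sum of 7.14 CPM, had the lowest Lcn2 of its group, 3.18 CPM. The part of these cells in the Lcn2 values was not tested.

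The sex-by-strain interaction called 0 of the 10 genes by edgeR, DESeq2 and limma, where edgeR called 0.401% of all genes tested. At an unadjusted p under 0.05, 4 of the 10 passed: Saa2, Orm3, Lcn2 and Apcs.

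Sequencing pool moved with several members, in shares near those of all genes tested, and its contrasts were added after the data were seen. From pool 1 to pool 3, 2 of the 10 genes were called, Orm2 (log2 -1.86, SE 0.24, adjusted p = 2.65e-06) and Saa4 (log2 -0.95, SE 0.11, adjusted p = 5.45e-07), and 20.0% of all genes tested were. Orm2 measured 10.8 to 75.8 CPM in the 8 livers of pool 1, 6.78 to 72.7 in the 5 of pool 2 and 4.20 to 19.8 in the 7 of pool 3. In Saa4 the ranges were 217 to 479.7, 257 to 387 and 127 to 249.5 CPM. Orm1 (log2 -0.49), Hp (0.52) and Apcs (0.49) passed an adjusted p of 0.05 without being called, so that 5 of 10 members passed it, against 58.3% of all genes. Between pools 1 and 2 none of the 10 genes was called by edgeR, DESeq2 or limma and 1 had an unadjusted p under 0.05, against 1.16% of all genes called. The labels do not say how pools differed beyond the sequencing, so what sets pool 3 apart cannot be told from them, and every group had livers in each pool. With the libraries of pools 1 and 2 alone, 13 in all, Apcs remained called in both strain comparisons (log2 2.25 and 2.75), and Lcn2 between the sexes in C3 was called (log2 2.66, adjusted p = 0.000288). The other 5 calls were lost with these fewer libraries, at log2 differences of similar size. Apcs between the sexes in B6 was 1.02 (adjusted p = 0.00943), and in C3 Orm3 was 1.82 (0.00120) and Saa4 -0.65 (0.0192). Between the strains in males, Saa3 was -1.02 (adjusted p = 0.0219) and Orm2 -1.50 (0.0141).

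**Figure D4:**
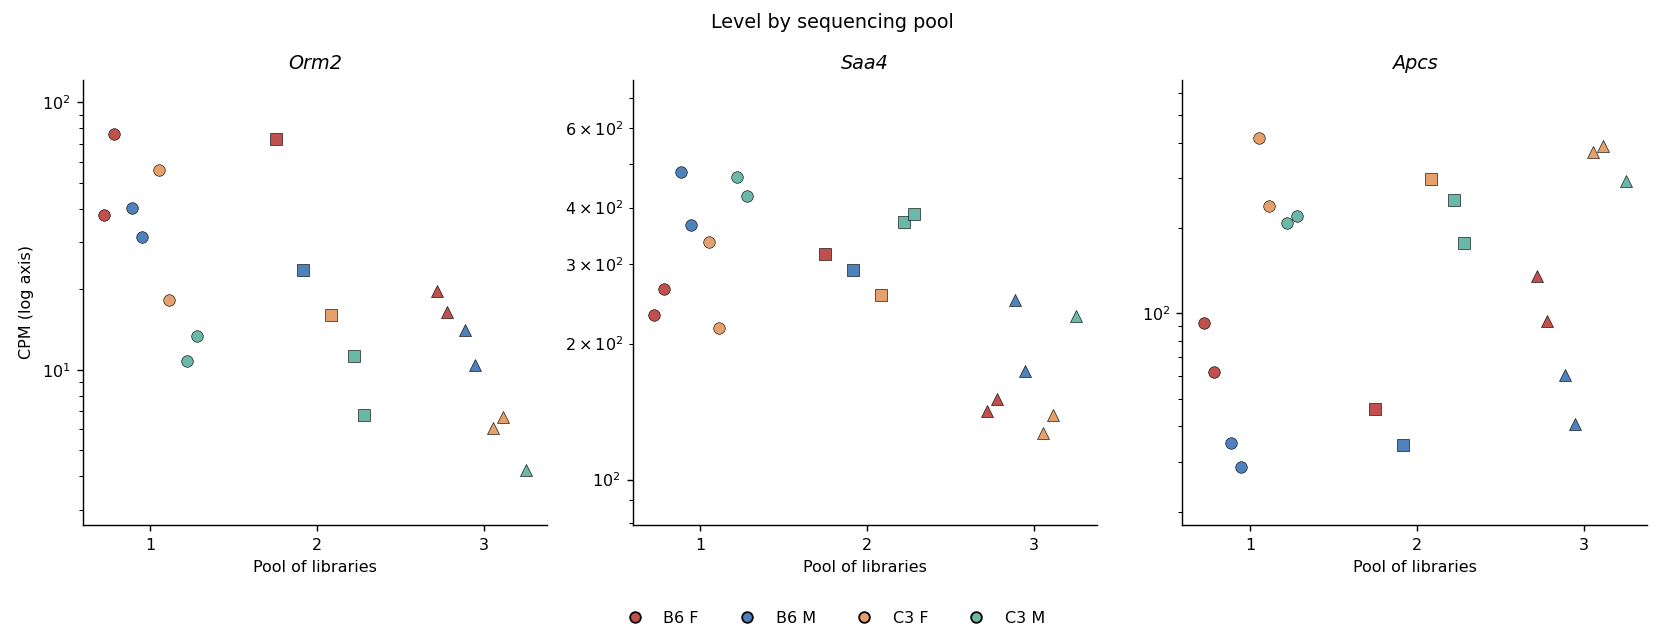
CPM of Orm2, Saa4 and Apcs in each liver on log axes, by sequencing pool, with the group as the colour. The 7 livers of pool 3 lie at 4.20 to 19.8 CPM for Orm2 and 127 to 249.5 for Saa4, while the strain difference of Apcs appears in each pool.

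The spread among livers of the same group ran from 0.18 to 1.06 over the members, as the SD of log2 CPM after group and pool were fitted. It was 1.06 for Saa1, 0.91 for Saa2 and 0.72 for Lcn2, above those of 99.7%, 99.4% and 98.3% of the genes tested, whose median was 0.16. Orm2 had an SD of 0.49 and Orm3 one of 0.40, at percentiles 91.2 and 85.9, and Saa3, Apcs and Hp had 0.38, 0.32 and 0.30. Saa4 (0.23) and Orm1 (0.18) lay at percentiles 67.0 and 55.5. With group alone fitted, the SD of Orm2 was 0.98, the second highest of the members at percentile 99.1, and that of Saa4 was 0.52 at percentile 87.4, while Saa1, Saa2 and Lcn2 had 1.01, 0.86 and 0.79. These values describe the 20 livers and were not tested.

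Single livers stood high in several members at once. C3 F replicate 4 had the highest CPM of its group in 7 of the 10 genes and was above the group mean of log2 CPM in all 10. B6 M replicate 3 was the highest of its group in 6 genes, Saa1, Saa2, Saa3, Hp, Lcn2 and Apcs, and B6 F replicate 1 in 5. C3 F replicate 1 gave the highest Saa1 and Saa2 of the C3 females, 51.0 and 20.5 CPM. C3 F replicates 2 and 5 were the low livers, more than 1 log2 unit under the fitted value in Saa1 and Saa2. No C3 M liver departed by more than 1 log2 unit in any member. With both B6 M replicate 3 and C3 F replicate 4 left out, chosen after their values were seen, Saa1 between the sexes in B6 was -1.21 (adjusted p = 0.0786), and the 7 calls held. In addition, 3 values passed: Hp between the sexes in C3 (log2 -0.69, adjusted p = 0.000378), Saa3 (-1.26, adjusted p = 0.000151) and Orm2 (-1.71, adjusted p = 1.13e-05) between the strains in females.

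**Figure D5:**
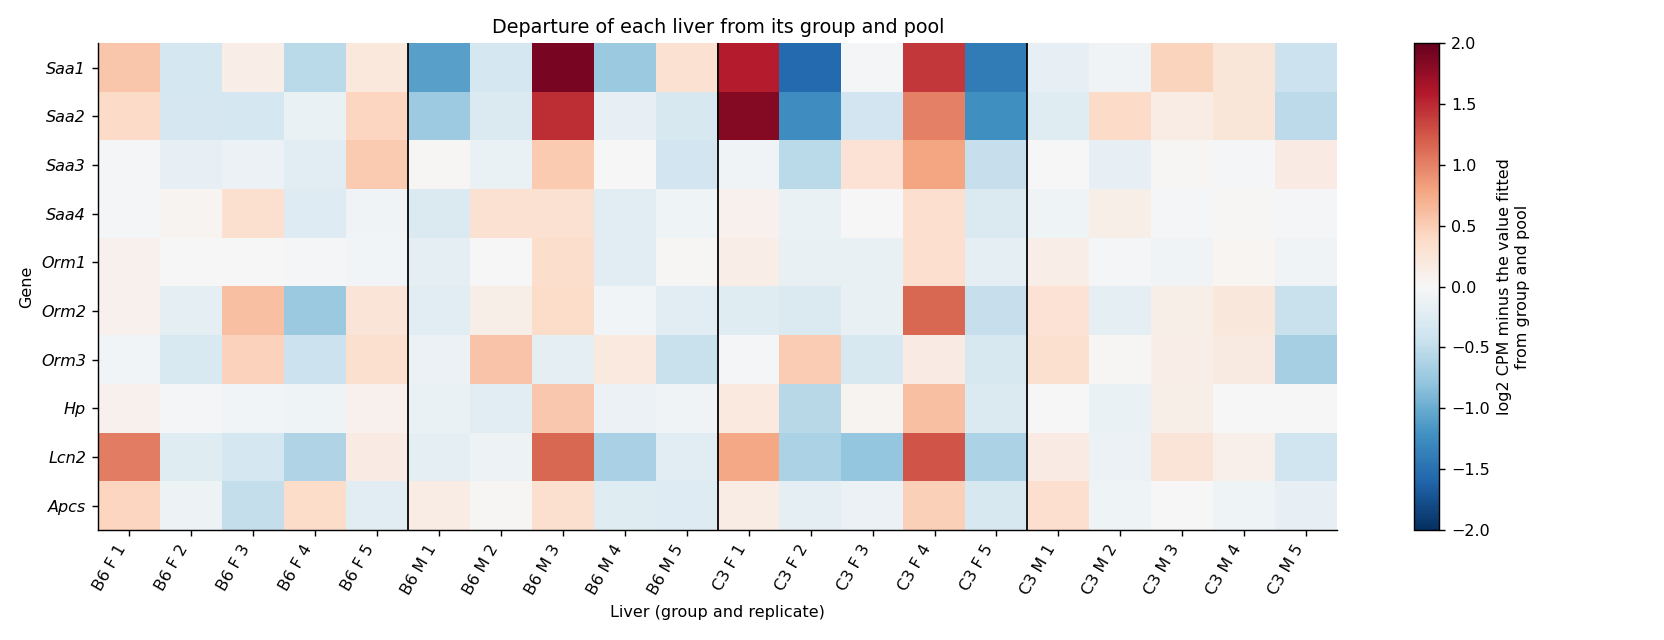
Log2 CPM of each gene in each liver minus the value fitted from group and pool; red is above and blue below, with black lines between groups. B6 M replicate 3, C3 F replicate 1 and C3 F replicate 4 are above the fit in Saa1, Saa2 and Lcn2, and C3 F replicates 2 and 5 are below it.

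For each member the 2 other genes with the most similar course over the 20 livers were found by the root mean square difference of centred log2 CPM, in log2 units. For Apcs they were Tnfsf10 (0.38) and Cep152 (0.43), against its own SD of 1.32 over the livers. For Orm1 they were Serping1 and Txndc12 (both 0.14, own SD 0.28), for Hp Slc39a11 and C4bp (both 0.22, own SD 0.43), and for Saa4 Rad23b and Polb (both 0.25, own SD 0.60). Saa3 lay nearest to Bid (0.33) and Ttf2 (0.34), and Orm3 to Gstt3 (0.39) and Acss3 (0.43). For Saa1 the 2 genes were Serpina3k (0.76) and Nek2 (0.78), against an own SD of 1.18. The nearest genes were Esco2 (0.66) and Col1a1 (0.73) for Saa2, Cenpm (0.67) and Cd276 (0.70) for Lcn2, and Gm10516 (0.61) and Mnda (0.63) for Orm2, and the own SDs of these members were 1.08, 1.09 and 1.19. The points share libraries, groups and pools, and the values describe likeness alone.

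Of the other positive acute phase genes, 20 of 21 listed were tested. Between the sexes 5 of 20 were called in B6 and 6 of 20 in C3, each of them higher in females, against 6.34 and 6.90% of all genes tested. The gene C3, complement component 3, was higher in females by 0.87 in B6 (adjusted p = 1.90e-08) and 0.59 in C3 mice (adjusted p = 3.35e-06) on the log2 scale. The metallothionein gene Mt1, whose product binds zinc and copper, was higher by 4.37 (adjusted p = 2.31e-06) and 2.97 (adjusted p = 5.57e-05), and Itih4 was higher by 0.71 in B6 (adjusted p = 2.63e-06). Mt2, a second metallothionein gene, was higher in females by 5.05 in B6 (adjusted p = 0.000149) and 4.37 in C3 (adjusted p = 0.000108). Between the strains, 1 of 20 was called in females and 2 of 20 in males, near the 9.40 and 9.64% of all genes tested. C4b, a complement component 4 gene, was lower in C3 by 1.93 in females (adjusted p = 4.13e-09) and 2.11 in males (adjusted p = 1.32e-09). Mt1 was higher in C3 males by 2.65 (adjusted p = 0.000219). The medians of this list were 0.20, 0.09, 0.22 and 0.29 in the B6 sex, C3 sex, female strain and male strain comparisons, against 0.00, 0.01, 0.02 and 0.01 over all genes.

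Negative acute phase genes are those whose products fall in inflammation. Between the sexes 2 of 8 were called in B6 and 1 of 8 in C3, and between the strains 2 of 8 in females and 3 of 8 in males. Over all genes tested these shares were 6.34, 6.90, 9.40 and 9.64%, and no called gene was lower in females or in C3. Below the fold minimum, Rbp4 was lower in females by 0.49 in B6 (adjusted p = 4.41e-05) and 0.40 in C3 (adjusted p = 0.000454). Apoa1 and Ttr were lower in females by 0.44 and 0.25 in B6 and by 0.31 and 0.25 in C3. Neither was called, and the other listed genes leaned higher in females. The list medians were 0.22, 0.08, 0.24 and 0.375 on the log2 scale. Serpina6, the corticosteroid-binding globulin, was higher in females by 1.52 in B6 (adjusted p = 6.48e-07) and 1.15 in C3 (adjusted p = 2.38e-05), and Ahsg, fetuin-A, by 0.72 in B6 (adjusted p = 5.57e-06). Apoa1, the main apolipoprotein of high density lipoprotein, was higher in C3 by 0.84 in females (adjusted p = 1.31e-05) and 0.71 in males (adjusted p = 9.90e-05). Trf, transferrin, was higher in C3 by 0.51 in females (adjusted p = 1.95e-05) and 0.71 in males (adjusted p = 3.49e-07), and Ahsg by 0.59 in males (adjusted p = 4.43e-05).

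Of the cytokine ligands and receptors upstream of the acute phase genes, 11 of 14 were tested. The ligands Il6, Osm and Lif had too few counts to be tested, so the calls say nothing of them. Il1rap, the accessory chain of the interleukin-1 receptor, was the 1 gene called between the sexes, lower in females by 0.72 in B6 (adjusted p = 1.98e-06) and 0.85 in C3 (adjusted p = 3.04e-07). Tnfrsf1a, a tumour necrosis factor receptor, was the 1 gene called between the strains, lower in C3 males by 0.51 (adjusted p = 5.62e-06), and in females 0 of 11 were called by edgeR, DESeq2 and limma, with 1 at an unadjusted p under 0.05. The 17 signal transducers, transcription factors and feedback inhibitors, which include Stat3, Socs3, Cebpb and Nfkbia, were called 0 times in each of the 4 comparisons by edgeR, DESeq2 and limma. At an unadjusted p under 0.05 the 4 comparisons gave 4, 9, 4 and 5 of these 17. Of all genes tested, edgeR called 6.34% between the sexes in B6 and 6.90% in C3, and 9.40% between the strains in females and 9.64% in males.

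Among 11 receptors and partners of the member proteins, Lrp2 (megalin, an endocytic receptor that binds Lcn2) was lower in females by 2.53 in B6 (adjusted p = 1.86e-06) and 1.69 in C3 (adjusted p = 0.000232). Cd36, a scavenger receptor, was higher in C3 females than males by 2.04 (adjusted p = 1.72e-06) and lower in C3 than in B6 males by 2.63 (adjusted p = 3.23e-08). Cd163, the macrophage receptor for haptoglobin bound to haemoglobin, was lower in C3 by 1.11 in females (adjusted p = 4.46e-07) and 0.67 in males (adjusted p = 0.000206), the same direction as the macrophage markers. Scarb1, the receptor for high density lipoprotein, was higher in C3 females by 0.57 (adjusted p = 1.44e-06).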

How the data were processed

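The 10 members, the pathway and marker lists and the tests were chosen with earlier results of these data known. Per the labels and the methods, the authors made strand-specific, ribosomal RNA-depleted libraries, trimmed reads with Cutadapt 1.9.1, aligned the reads of both strains to mm9, a C57BL/6 reference, with STAR 2.5.1b and counted read pairs on RefSeq genes with featureCounts of Subread 1.5.0-p1, leaving out multimapping and multi-overlapping reads. The deposited raw counts carry no normalization. The authors also deposited TPM values, whose gene length is not given in the sources used here. The replicates of a group were separate mice, and 5 mice per group limit the precision.

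The tests on counts were run in edgeR 4.0.16 under R 4.3.3, with filterByExpr on the 4 groups, TMM, and a quasi-likelihood fit of group and pool over all 20 libraries, with Benjamini-Hochberg adjustment over 13704 genes. Calls needed an adjusted p under 0.001 and a log2 fold change over 0.5. Log2 CPM used a prior count of 2. A count of 0 allows up to 3 counts, for counting error only. Scripts were tested on simulated data. The named genes were the members, from each pathway list and comparison up to 3 called genes with the smallest p, and for each member the 2 genes closest in root mean square difference. Alternatives were DESeq2 1.42.0, limma 3.58.1 on log2(TPM + 1) or log2(TPM + 0.1), other normalizations, no filter, no pool term, a replicate block, only the 2 groups compared, an adjusted p of 0.05, leaving out each library, and 2 further ones chosen after seeing the data. Promoter sequences matched 8 of the 10 members.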

Additional observations from a re-analysis of the deposited data

Results flagged for a closer look

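Of the 40 sets of 5 livers, 10 genes in 4 groups, 3 held 1 liver far from the other 4. The measure was Dixon's test on CPM without a log scale, at its 95% critical value of 0.71. Chance flags about 1 in 20 sets only if values are normally distributed, which CPM need not be, so its rate here is not known. The test also took no account of pool, and the livers of a group came from different pools. In B6 M, Saa1 was 203 CPM in replicate 3, and the next liver had 49.6 CPM. The same liver had 40.2 CPM of Saa2, and the next had 12.9 CPM. In C3 F, Orm2 was 55.7 CPM in replicate 4, and the next liver had 18.2 CPM.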

How the results depend on the processing

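The strain difference of Apcs was called in both sexes under every alternative and without any 1 library, and no called difference changed sign under an alternative. Without 1 library at a time, the genes called ranged from 696 to 902 between the sexes in B6, from 662 to 1110 in C3, from 1152 to 1284 between the strains in females, from 1108 to 1372 in males and from 32 to 55 for the interaction. The members called then ranged from 0 to 1, from 1 to 3, from 1 to 3 and from 1 to 4 in the 4 comparisons in that order, and 0 were called for the interaction. The fit with no pool term called 421, 482 and 815 genes in the 2 sex comparisons and the female strain comparison and 20 for the interaction, against 869, 945, 1288 and 55 with the pool term, and 0 and 1 members in the sex comparisons against 1 and 2. Pools 1 and 2 alone gave 380, 428, 626, 786 and 4 genes in the 5 comparisons and 0, 1 and 1 members in B6, in C3 and in males. An adjusted p under 0.05 with no fold minimum gave 4742, 5479, 4515, 4733 and 405 genes and 6, 5, 3 and 6 members. DESeq2 called 2 members in the B6 sex comparison, adding Orm3, 3 in C3, adding Lcn2, 3 in the female strain comparison, adding Saa3 and Orm2, and 5 in the male one, adding Saa2 and Orm3, and 183 genes for the interaction. Limma called the same 3 members between the strains in females with either pseudocount, and 1 member between the sexes in C3 with a pseudocount of 1. With only the 2 groups compared, 0 members were called between the sexes in B6. The interaction has no fit of 2 groups. Why the counts moved was not tested.

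The libraries share replicate numbers across groups, but the numbers do not pair the mice: correlations of same-numbered livers averaged -0.19, -0.24, 0.22 and 0.18 in the 4 comparisons and 0.10, -0.01, 0.06 and 0.01 with the pool effect removed. With the replicate block, 1 member was called between the sexes in C3, where Saa4 was lost (log2 -0.66, adjusted p = 0.00111), and 2 between the strains in males, where Saa3 was lost (log2 -1.23, adjusted p = 0.00144), and the pool 2 contrast called 47 genes.

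The differences that turned sign under an alternative fit were not called in the main fit, where their adjusted p was 0.498 or higher. With the sign turned they were not called either, at adjusted p of 0.320 or higher. Orm1 between the sexes in B6 became 0.0789 with limma at either pseudocount and 0.0162 with upper quartile normalization, and Saa3 in C3 0.0083 in pools 1 and 2. Between the strains in females, Saa2 became -0.31 and -0.34 with limma and -0.14 with the 2 groups alone, Lcn2 -0.17, -0.19 and -0.0451, and Hp 0.17 in pools 1 and 2. In males, Orm1 became -0.0219 with limma at either pseudocount and -0.0027 with upper quartile normalization, Hp 0.0083 with the replicate block, 0.0421 with the 2 groups alone and 0.17 in pools 1 and 2, and Saa1 0.0836 in those pools. For the interaction, Hp became -0.0677 and -0.0678 with limma and -0.0449 with the replicate block. Without both B6 M replicate 3 and C3 F replicate 4, Orm1 in B6 became 0.05, Saa2 -0.12 and Lcn2 -0.48 in females, Hp 0.13 and Saa1 0.17 in males, and the interaction -0.31 for Hp, -0.15 for Saa3, -0.0122 for Orm1 and -0.20 for Orm2. Without 1 library at a time, Orm1 in B6 ranged from -0.11 to 0.0627 and Saa3 in C3 from -0.34 to 0.0618. In females the strain difference ranged from -0.60 to 0.50 for Saa2, -0.17 to 0.0539 for Saa4, -0.19 to 0.14 for Hp and -0.46 to 0.37 for Lcn2, and in males from -0.91 to 0.23 for Saa1, -0.0402 to 0.13 for Orm1 and -0.0851 to 0.14 for Hp. The interaction ranged from -0.04 to 0.39 for Saa3, 0.0684 to 0.2409 for Orm1, -0.13 to 0.50 for Orm2 and -0.18 to 0.12 for Hp. The cause was not tested. Each group had 5 mice, and Saa3, with the fewest counts, had the largest relative counting error.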
